A study of Bos taurus with 12 samples.

Results

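The genes described here were 7 selenoproteins (SELENOF, SELENOK, SELENOS, SELENOT, SELENOM, SELENOW and SELENOH) and 3 methionine sulfoxide reductases (MSRA, MSRB1 and MSRB2) in the liver of newborn calves. They were chosen by name, and all 10 were found among the 30336 gene IDs of the count data. The liver was biopsied when the 12 Holstein heifer calves were 4 d old. The dams of 6 calves had eaten a basal close-up diet (CON), and the dams of the other 6 the same diet with ethyl-cellulose rumen-protected methionine (MET) over the last 28 d of gestation. The supplement reached the calf through the dam only, the calves were part of a larger cohort, and both groups were managed alike after birth. Stranded mRNA libraries gave between 8277789 and 10397604 reads counted on genes. The libraries of CON calves 1 and 4 were nearly the same, with a chi-square per gene of 1.31 where counting noise alone gives about 1, and those of MET calves 1 and 3 gave 1.23, whereas the other 64 pairs gave 23.25 to 122.17. The reads of each such pair were summed and counted as 1 sample, which left 5 samples per diet. The calves were single-born heifers whose dams had been assigned to the diets at random, and whether each summed pair stands for 1 calf or 2 cannot be told from the counts. The first sequencing index also differed between the diets, with 1 for all CON and 1 for all MET libraries, and its part cannot be told apart from that of the diet.

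Selenoproteins carry selenocysteine, a cysteine analog in which selenium replaces sulfur. It is inserted at a UGA codon that would otherwise stop translation, with the help of a stem-loop in the untranslated end of the mRNA. Many of these proteins are oxidoreductases with a thioredoxin-like fold, and several reside in the endoplasmic reticulum (ER). Methionine sulfoxide reductases return oxidized methionine to methionine, MSRA for the S form of the sulfoxide and the MSRB enzymes for the R form, with thioredoxin as a usual source of electrons. MSRB1 is itself a selenoprotein, while mammalian MSRA and MSRB2 use cysteine. Liver takes up dietary selenium and secretes selenoprotein P (SELENOP), which carries it to other tissues. The comparison asks how methionine supplied to the dam altered the expression of these genes in the liver of the calf.

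Estimated expression was higher in MET calves for 9 of the 10 genes, but none of the 10 passed the threshold used in the study (false discovery rate, FDR, at most 0.10 over all genes tested) when the 10 samples were compared by edgeR's quasi-likelihood test. The smallest unadjusted p values belonged to SELENOH, 1.48-fold higher in MET, and SELENOS, 1.52-fold higher. SELENOH passed (edgeR FDR = 0.0869, log2 fold change 0.50) when all 12 libraries were counted separately, as did 4.41% of all genes tested. It did not pass in those libraries once a trend on gene length was removed (log2 fold change 0.30, edgeR FDR = 0.198) or with replicate numbers as a block (edgeR FDR = 0.173). MSRA, MSRB2 and SELENOT had estimates near 0. No gene of any kind passed in the 10 samples (0% of 13242 genes tested, lowest FDR 0.156), while the unadjusted p was 0.05 or less for 2165 genes. DESeq2 on the same 10 samples called SELENOH (FDR = 0.0273) and SELENOS (FDR = 0.0676), against a background of 5.71% of the genes to which it gave an adjusted p.

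Both SELENOS and SELENOK lie in the ER membrane. SELENOS binds the ATPase VCP and the derlins, which draw misfolded proteins out of the ER for degradation. Its gene (chromosome 21, 5385098 to 5394275, plus strand, on assembly UMD 3.1.1 as for all positions here) gave 61.4, 59.1, 101.5, 86.9 and 73.6 CPM (the gene's read count scaled to the size of its library, with sizes adjusted by the trimmed mean of M values, TMM) in CON, listed as calves 1 with 4, 2, 3, 5 and 6. In MET it gave 76.9, 126.1, 122.4, 120.9 and 136.6 CPM in calves 1 with 3, 2, 4, 5 and 6. The same order of calves holds below. MET calves 2, 4, 5 and 6 were higher than any CON calf, and the pair of MET calves 1 and 3 lay among the CON samples. The means were 76.5 ± 17.9 CPM in CON and 117 ± 23.0 in MET (SD, n = 5 each). The log2 fold change was 0.61 (SE 0.19, 95% interval 0.20 to 1.02, edgeR FDR = 0.185), and a two-sided exact permutation test of log2 CPM over the 252 arrangements gave p = 0.0238. That p was 0.0556 without CON calf 2 or without CON calves 1 and 4, the highest among 14 fits that left out a library or a pair. Here and below, leaving out 1 library of a summed pair still left all 10 samples, so such fits are close to the full one.

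SELENOK (chromosome 22, 47582815 to 47590574, plus strand) takes part in the same degradation pathway and is a cofactor of the palmitoyltransferase ZDHHC6. It gave 20.6, 22.0, 56.7, 38.9 and 23.8 CPM in CON. In MET it gave 23.7, 54.2, 60.0, 50.4 and 70.1 CPM. Both diets held low and high samples, with CON calf 3 as high as most MET calves and the pair of MET calves 1 and 3 as low as most CON calves. The mean was 32.4 ± 15.4 CPM in CON and 51.7 ± 17.3 in MET (SD, n = 5 each), a log2 fold change of 0.67 (SE 0.32, 95% interval -0.03 to 1.38, edgeR FDR = 0.326). Its exact permutation p was 0.103, and its interval was the widest of the 10 genes in this fit. Leaving out a library or a pair put the estimate between 0.54, without MET calf 6, and 0.97, without CON calf 3, and the exact permutation p between 0.0476, without MET calves 1 and 3, and 0.23, without MET calf 6. The unadjusted edgeR p was at most 0.05 in 2 of 14 such fits.

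The other ER members are soluble or membrane-bound thioredoxin-like proteins. SELENOF (chromosome 3, 57292922 to 57328211, plus strand) associates with the glucosyltransferases UGGT1 and UGGT2, which check the folding of glycoproteins. It gave 62.6, 70.3, 77.2, 72.9 and 67.2 CPM in CON and 82.8, 73.3, 101.4, 84.5 and 77.3 CPM in MET. Of the MET samples 4 were above every CON sample, with MET calf 2 below the highest of them, and the spread within each diet was narrow. The means were 70.0 ± 5.55 and 83.9 ± 10.8 CPM (SD, n = 5 each), the log2 fold change was 0.26 (SE 0.12, 95% interval 0.01 to 0.51, edgeR FDR = 0.293) and the exact permutation p was 0.0159. The unadjusted edgeR p was at most 0.05 in 7 of 14 fits that left out a library or a pair. Among these, the fits without 1 library of a summed pair (CON calf 1 or 4, MET calf 1 or 3) kept all 10 samples. Their log2 fold changes were 0.25 to 0.27, near the full fit, so they add little to that count.

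SELENOM (chromosome 17, 72064476 to 72068000, minus strand), a relative of SELENOF, had the fewest reads of the 10 genes, between 40 and 244 per library. It gave 5.71, 17.5, 18.1, 14.5 and 13.3 CPM in CON, and in MET 17.7, 16.1, 21.7, 27.3 and 17.0 CPM. The pair of CON calves 1 and 4 stood well below all the other samples. The log2 fold change was 0.54 (SE 0.27, 95% interval -0.04 to 1.13, edgeR FDR = 0.337), and without that pair it was 0.34. SELENOT (chromosome 1, 118445767 to 118476097, minus strand), an ER oxidoreductase, ranged from 56.7 to 77.0 CPM in CON and from 61.1 to 83.7 CPM in MET. Its log2 fold change was 0.08 (SE 0.12, 95% interval -0.19 to 0.34, edgeR FDR = 0.794), an interval that leaves room for changes in either direction, and it ran from 0.02 without CON calves 1 and 4 to 0.13 without MET calf 5.

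Outside the ER, SELENOH is a nuclear and nucleolar protein implicated in redox control. Its gene (chromosome 15, 82373578 to 82375217, plus strand) gave 31.2, 34.8, 30.8, 30.9 and 26.0 CPM in CON. In MET it gave 33.5, 46.4, 44.4, 45.8 and 57.6 CPM. The CON samples were close together, 4 MET samples were above all of them, and the pair of MET calves 1 and 3 fell just below CON calf 2. The means were 30.8 ± 3.12 and 45.5 ± 8.55 CPM (SD, n = 5 each), the log2 fold change was 0.56 (SE 0.14, 95% interval 0.26 to 0.87, edgeR FDR = 0.174) and the exact permutation p was 0.0159. The exact permutation p stayed between 0.00794 and 0.0238 in the 14 fits that left out a library or a pair. Without MET calves 1 and 3, the MET sample within the CON range, the edgeR FDR of SELENOH was 0.1, at the threshold. That fit called 39 genes in all, against 0 in the 10 samples.

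SELENOW (chromosome 18, 55112228 to 55116597, plus strand) is a small cytosolic selenoprotein whose mRNA is known to follow selenium supply. It gave 57.4, 77.1, 77.9, 64.1 and 65.1 CPM in CON and 73.4, 88.8, 61.8, 77.4 and 102.1 CPM in MET. MET calves 2 and 6 were above every CON sample and MET calf 4 was lower than all but 1 of them. The log2 fold change was 0.24 (SE 0.15, 95% interval -0.08 to 0.56, edgeR FDR = 0.441), and it was 0.14 without MET calf 6.

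**Figure D1:**
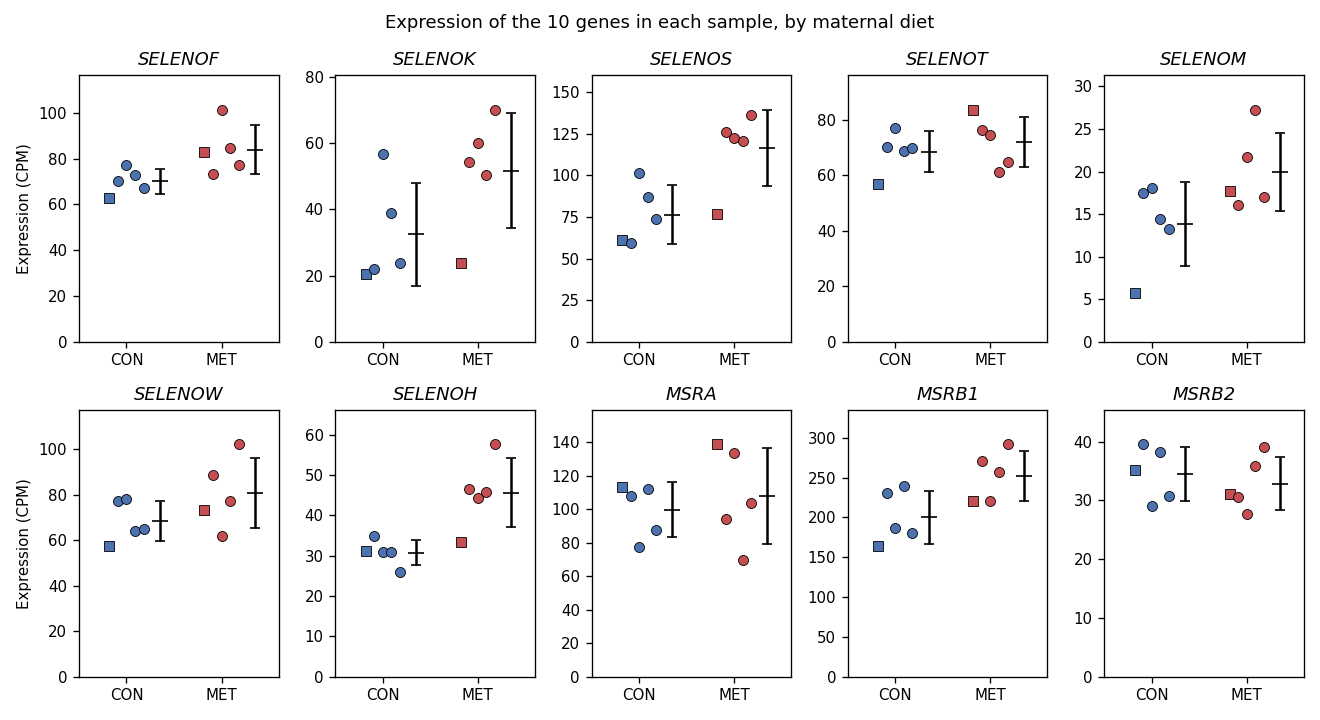
Expression of each gene in CPM (vertical axis from 0, scaled per gene) in the 5 CON (blue) and 5 MET (red) samples. Squares are the samples made of 2 near-identical libraries, and the black mark at the right of each diet is the mean with its SD; MET and CON overlap in every panel, and the MET square lies within the CON range for SELENOK, SELENOS, SELENOM, SELENOW, SELENOH, MSRB1 and MSRB2.

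Among the reductases, MSRB1 (chromosome 25, 1503559 to 1508211, minus strand), found in the cytosol and nucleus, was the gene with the most reads of the 10. It gave 163.7, 230.3, 187.1, 239.5 and 180.0 CPM in CON. In MET it gave 220.7, 270.7, 220.9, 257.5 and 291.8 CPM. Of the MET samples 3 were above every CON sample, and the other 2 were below CON calves 2 and 5. The means were 200.1 ± 33.0 and 252 ± 31.3 CPM (SD, n = 5 each), the log2 fold change was 0.33 (SE 0.14, 95% interval 0.02 to 0.65, edgeR FDR = 0.284) and the exact permutation p was 0.0476, rising to 0.0873 without CON calf 6 or CON calves 1 and 4.

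MSRA and MSRB2 had estimates near 0. MSRA (chromosome 8, 8635550 to 9019800, minus strand), which acts in the cytosol and mitochondria, ranged from 77.3 to 113 CPM in CON and from 69.4 to 139 CPM in MET. MET held both the lowest and the highest sample. Its log2 fold change was 0.11 (SE 0.19, 95% interval -0.30 to 0.53, edgeR FDR = 0.807), from 0.0051 without MET calves 1 and 3 to 0.23 without MET calf 5. Mitochondrial MSRB2 (chromosome 13, 24392825 to 24417802, plus strand) ranged from 29.0 to 39.5 CPM in CON and from 27.7 to 39.1 CPM in MET, with a log2 fold change of -0.07 (SE 0.13, 95% interval -0.35 to 0.21, edgeR FDR = 0.817), from -0.14 without MET calf 6 to -0.02 without MET calf 4. Whether the change in MSRB1 differed from that in MSRA or MSRB2 was not tested. MSRB3, an MSRB enzyme of the ER and mitochondria that also uses cysteine, from the list of methionine oxidation partners, averaged 116 ± 14.7 CPM in CON and 95.6 ± 21.0 in MET (SD, n = 5 each; log2 fold change -0.28, edgeR FDR = 0.408).

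Counting all 12 libraries as separate samples, edgeR called 583 of 13212 genes (4.41%) at FDR of at most 0.10, and SELENOH was the member among them, with 0 members called once the length trend was removed from those libraries. DESeq2 on the 12 libraries called 10.4% of genes and 4 members, namely SELENOH (FDR = 0.0324), SELENOS (0.0524), SELENOF (0.0682) and MSRB1 (0.0827). In the 10 samples, SELENOF, SELENOS, SELENOH and MSRB1 had higher expression in MET with an unadjusted edgeR p of at most 0.05, 4 of 10 against 7.83% of all genes tested, and no member was lower at that p, against 8.52%. The same 4 genes were higher in MET at an exact permutation p of 0.05 or less, against 7.43% of all genes tested. The estimate was above 0 for 9 of 10 members and for 49.5% of all genes, and the median log2 fold change was 0.30 over the members and -0.0028 over all genes. No member had its MET samples wholly above (1.91% of genes) or wholly below (1.8% of genes) its CON samples. The 10 genes share samples and are not independent of each other, so these shares are descriptions.

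Gene length moved with diet in these libraries. Over all genes tested, the log2 fold change had a correlation of -0.256 with log2 exonic length, and the members were short, with a median exonic length of 1210.5 bases against 2806.5 for all genes tested. The part of each sample's log2 expression that followed length, averaged at the members' lengths, was -0.05 ± 0.06 in CON and 0.07 ± 0.08 in MET (SD, n = 5 each), a difference of 0.11 (exact permutation p = 0.0397). With this trend removed, 9 of 10 estimates were still above 0 (50.7% of all genes), but the members' median was 0.19. SELENOH had a log2 fold change of 0.37 and an unadjusted edgeR p of 0.00691, and SELENOS had 0.49 and 0.0245. These were then the members higher in MET at an unadjusted p of 0.05 or less, 2 of 10 against 6.62% of all genes. The estimates of SELENOF (0.14), MSRB1 (0.24) and SELENOW (0.08) were also smaller, with unadjusted edgeR p of 0.293, 0.0887 and 0.539. By the exact permutation test SELENOH alone stayed at most 0.05 (p = 0.0238), 1 of 10 members against 6.46% of all genes higher in MET at that p, with SELENOS and MSRB1 at 0.0556.

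**Figure D2:**
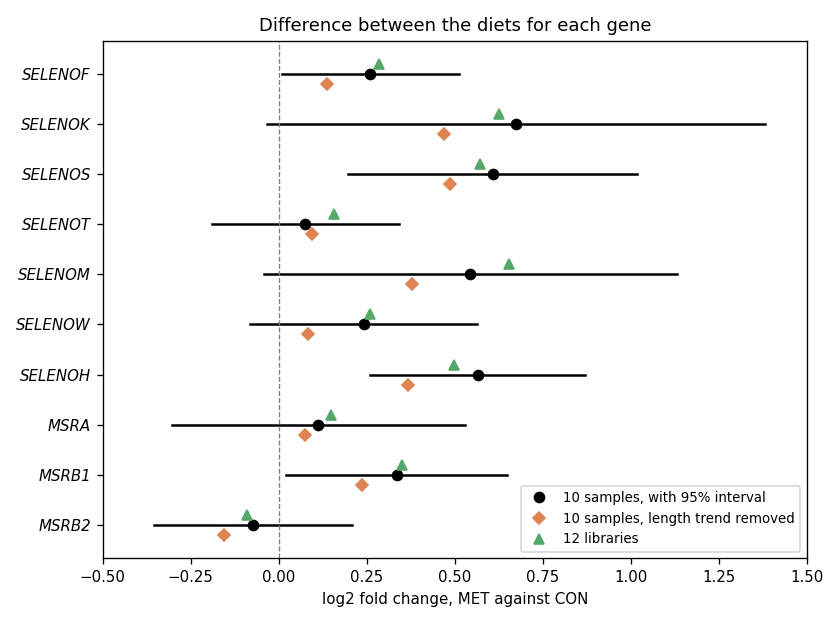
Log2 fold change of MET against CON for each gene, with circles for the 10 samples (bars, 95% interval), triangles for all 12 libraries and diamonds for the 10 samples with the trend on gene length removed. The estimates run from -0.07 for MSRB2 to 0.67 for SELENOK, the bars of SELENOH, SELENOS, MSRB1 and SELENOF stay above 0, and removing the length trend lowers 9 of them.

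The tissue label was checked against marker genes of liver cell types, summed in CPM per sample. All 8 hepatocyte markers (ALB, APOA1, APOB, TTR, SERPINA1, FGB, TF and CPS1) were expressed, with sums from 136226 to 183529 CPM in CON and 111181 to 144535 in MET (exact permutation p = 0.0397), and 1 of the 8 had an estimate above 0. The 8 Kupffer cell and macrophage markers summed to 1038 to 1448 CPM in CON and 1209 to 1642 in MET (exact permutation p = 0.0952), and all 8 had estimates above 0. Sums of cholangiocyte, endothelial, stellate, erythroid and lymphocyte markers gave exact permutation p from 0.111 to 0.857. Muscle markers summed to at most 0.224 CPM, with ACTA1, CKM and MYL1 at 0. In bulk tissue, fewer cells of a type and less RNA per cell cannot be told apart, and the part of cell composition in the differences above was not tested.

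Levels were compared between genes as CPM per kilobase of exon (RPKM) over all 10 samples. MSRB1 had the highest level at 168 ± 30.3 RPKM (SD, n = 10), above 96.9% of the genes tested. It exceeded SELENOW (77.4 ± 14.1) 2.16-fold, in 10 of 10 samples. SELENOW, SELENOS (75.6 ± 22.5) and SELENOF (67.3 ± 9.52) followed, and neighbours among these 3 did not differ beyond their spread. SELENOF exceeded MSRA (52.9 ± 11.4) 1.29-fold, in 9 of 10 samples. MSRA, SELENOH (52.0 ± 13.5) and SELENOK (48.8 ± 21.5) came next, also without a step that passed the test. SELENOK exceeded MSRB2 (22.8 ± 2.98) 1.95-fold, in 9 of 10 samples. MSRB2, SELENOM (23.5 ± 7.73) and SELENOT (21.4 ± 2.45) came last, and SELENOT still lay above 80.9% of the genes tested. The 3 named steps were the only ones of 9 between neighbours in the order of mean log2 level to pass an exact two-sided sign-flip permutation test (Benjamini-Hochberg p = 0.0176 for each). The same 3 steps had the same direction within each diet, though SELENOK exceeded MSRB2 1.49-fold in CON and 2.55-fold in MET, and the order inside the runs was not the same in both. By mean log2 level, CON had SELENOW and SELENOF above SELENOS, MSRA above SELENOH and SELENOK, and SELENOM last, whereas MET had SELENOS above SELENOW and SELENOF, SELENOH and SELENOK above MSRA, and SELENOT last. MSRB3 stood at 26.2 ± 4.97 RPKM (SD, n = 10), so that MSRB1 was the most expressed of the 4 reductases measured.

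**Figure D3:**
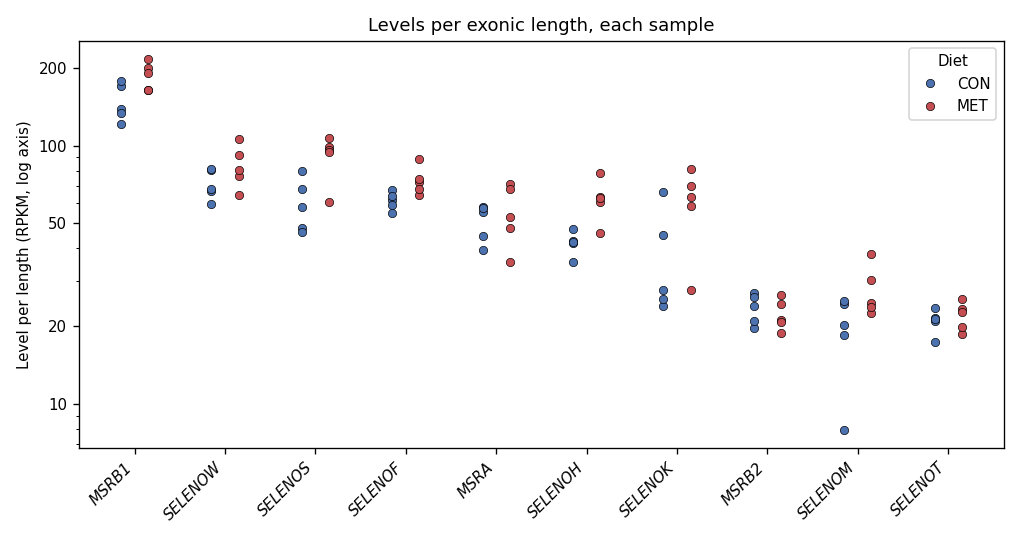
Level per exonic length (RPKM, log axis) of each gene in each of the 5 CON (blue) and 5 MET (red) samples, in the order of mean log2 level. MSRB1 lies above the rest (121 to 216 RPKM), and SELENOM spreads widest of the last 3 genes, from 7.94 RPKM in a CON sample to 37.9 RPKM in a MET sample.

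Among the 45 pairs of members, SELENOK and SELENOS varied together most closely. With diet means removed, the log2 CPM of these genes had a Pearson's r of 0.973 over the 10 samples (permutation p = 0.00046, Benjamini-Hochberg p = 0.0207) and a Spearman's rho of 0.976 (permutation p = 0.00057, Benjamini-Hochberg p = 0.0256). Without the 2 samples farthest from the median of SELENOK, r was 0.936, and it was 0.960 within CON and 0.987 within MET. The samples with low SELENOK (CON calves 1 with 4, 2 and 6, and MET calves 1 with 3) were also the samples with the lowest SELENOS. Leaving out a library or a pair kept r between 0.951 and 0.989, but the Benjamini-Hochberg p rose to between 0.0612 and 0.109 without CON calf 3, 5 or 6, without MET calf 5 or 6, or without MET calves 1 and 3. With the length trend removed r was 0.970 (permutation p = 0.00112, Benjamini-Hochberg p = 0.0504). No other pair passed the correction. The next by r were MSRB1 with MSRB2 (0.689), SELENOW with MSRB1 (0.653) and SELENOF with SELENOM (0.626), all with a Benjamini-Hochberg p of 0.457, and 26 of 45 pairs had r above 0, with a median of 0.255.

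**Figure D4:**
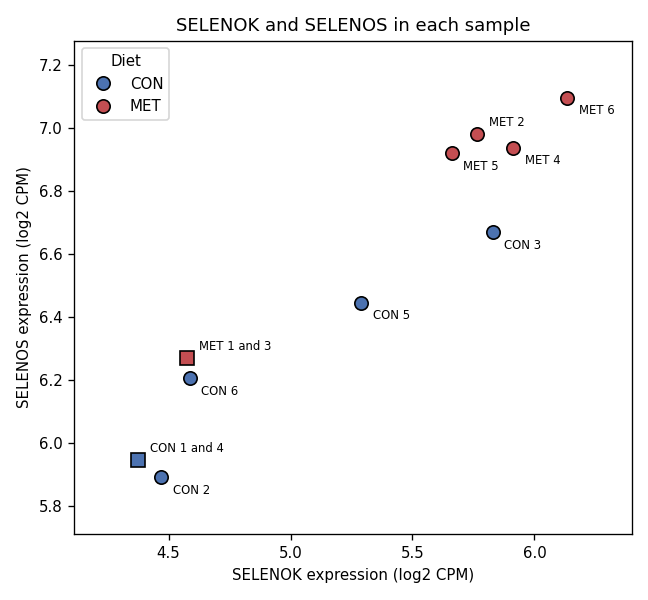
SELENOS against SELENOK expression (both log2 CPM) in each of the 10 samples, blue for CON and red for MET, with squares for samples made of 2 near-identical libraries and labels giving the calves. The points lie along one rising band through both diets, with CON 1 and 4 and CON 2 at the low end and MET 6 at the high end.

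Across all genes with a symbol, the genes most like each member were found by r over the 10 samples with diet means removed, as a description. SELENOK was closest to SLC35B1 (0.983) and GMPPB (0.982), and SELENOS to MANF (0.963) and LARP1B (0.956). SLC35B1 carries nucleotides into the ER, GMPPB makes GDP-mannose for glycosylation, and MANF is an ER stress-responsive protein. Functions are given for these genes only, and a shared function of the closest genes was not tested. SELENOH was closest to AK1 (0.969) and SERF2 (0.965), SELENOW to MAGED4B (0.974) and MYH11 (0.972), and MSRB1 to SLC27A4 (0.951) and SARDH (0.926). MSRB2 was closest to FUCA2 (0.982) and ZNHIT1 (0.955), and MSRA to SPG21 (0.955) and TMEM205 (0.943). The closest genes to SELENOF were OSTM1 (0.933) and IRAK1 (0.927), to SELENOT SKA2 (0.940) and SEC14L1 (0.939), and to SELENOM STIMATE (0.951) and RYK (0.940). All of these r values share the same 10 samples, and they are the 2 highest for each member among the 12688 tested genes with a symbol.

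The other selenoproteins did not move in one direction. Of 17 listed, 12 were tested, with 7 estimates above 0 and 5 below, a median of 0.06. None passed in the 10 samples by edgeR, where 1 higher (GPX1) and 1 lower gene (SELENOP) had an unadjusted p of 0.05 or less, 2 of 12 against 16.4% of all genes tested. DESeq2 called the same 2 (FDR = 0.0194 and 0.0378), against 5.71% of all genes. Cytosolic glutathione peroxidase GPX1, which reduces hydrogen peroxide, was between 82.6 and 129 CPM in CON and between 133 and 221 in MET, without overlap as for 1.91% of all genes (log2 fold change 0.66, SE 0.17, edgeR FDR = 0.175). It passed over the 12 libraries (edgeR FDR = 0.0684), a fit that called 4.41% of all genes tested and counted each summed pair as 2 samples. It did not pass there with the length trend removed (edgeR FDR = 0.116) or with the replicate block (edgeR FDR = 0.169). SELENOP ran the other way, between 3801 and 5150 CPM in CON and between 2208 and 3615 in MET, also without overlap as for 1.8% of all genes in that direction (log2 fold change -0.51, SE 0.17, edgeR FDR = 0.205), and passed over the 12 libraries (edgeR FDR = 0.0869), also with the length trend removed (edgeR FDR = 0.0972) but not with the replicate block (edgeR FDR = 0.205). SELENOI, an enzyme of phosphatidylethanolamine synthesis, had a log2 fold change of -0.74 (SE 0.38, edgeR FDR = 0.358) at 1.78 ± 1.02 CPM in CON and 1.07 ± 0.204 in MET (SD, n = 5 each), and its log2 fold change was -0.43 without CON calf 6. GPX6, DIO2 and SELENOV had no reads, which allows up to 0.289 to 0.362 CPM per library, and GPX2 and DIO3 were below the filter on low counts.

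Genes that make selenocysteine and insert it, 11 of 12 tested, had 8 estimates above 0 and a median of 0.12, or 7 above 0 and a median of 0.04 with the length trend removed. SEPSECS, which makes selenocysteinyl-tRNA, had the largest difference at -0.42 (SE 0.18, edgeR FDR = 0.288), and EEFSEC, the elongation factor for selenocysteine, had 0.39 (SE 0.19, edgeR FDR = 0.33) and 0.26 without CON calf 3. The uptake and handling genes LRP2 (-0.29, edgeR FDR = 0.721) and SELENBP1 (-0.25, edgeR FDR = 0.654) were the 2 of 3 tested. LRP2 was 0.10 without CON calf 2, a change of direction, and -0.50 without CON calf 6, and SELENBP1 ran from -0.46 without MET calf 6 to -0.10 without CON calf 5. Of the 6 methionine oxidation and repair partners, 4 had estimates above 0 and the median was 0.17, with the methionine-oxidizing enzymes MICAL2 (0.37, edgeR FDR = 0.681) and MICAL1 (0.36, edgeR FDR = 0.518) the largest. MICAL2 turned to -0.15 without MET calf 4, and over the 12 libraries it was 0.19, below thioredoxin TXN2 at 0.35. MICAL1 was 0.20 without MET calf 6.

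The 10 ER partners of SELENOF, SELENOK and SELENOS were all tested, with 9 estimates above 0 and a median of 0.17. Of the derlins, DERL3 had an estimate of 0.80 (SE 0.37, edgeR FDR = 0.303), DERL2 of 0.39 (SE 0.14, edgeR FDR = 0.213) and DERL1 of 0.14 (edgeR FDR = 0.749), the last between 0.06 without CON calf 2 and 0.32 without CON calf 3. The ubiquitin ligase SYVN1 was at 0.36 (edgeR FDR = 0.343), and it lay above DERL2 over the 12 libraries (0.34 against 0.29) and with the length trend removed (0.31 against 0.28). DERL2 averaged 108 ± 18.6 CPM in CON and 142 ± 14.0 in MET, and DERL3 averaged 2.64 ± 1.64 and 4.60 ± 0.927 CPM (SD, n = 5 each). VCP (0.05), the partner named above for SELENOS, had an edgeR FDR of 0.896, UGGT1 (0.28) and UGGT2 (0.19), those of SELENOF, had 0.480 and 0.769, and ZDHHC6, the partner of SELENOK, had 0.01 (edgeR FDR = 0.975). VCP was -0.02 without CON calves 1 and 4, ZDHHC6 was -0.04 without CON calf 2, UGGT1 was 0.45 without CON calf 3, and UGGT2 ran from 0.05 without CON calves 1 and 4 to 0.31 without MET calves 1 and 3. In these 4 lists of partners no gene passed by edgeR in the 10 samples or by DESeq2, and SEPSECS (lower in MET), DERL2 and DERL3 (both higher) had an unadjusted edgeR p of 0.05 or less, 3 of 29 genes against 16.4% of all genes tested. With the length trend removed they were 2 of 29, against 14.1% of all genes, namely SEPSECS (unadjusted edgeR p of 0.0372) and UGGT1 (log2 fold change 0.44, 0.0341), while DERL2 and DERL3 had 0.071 and 0.0786.

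**Figure D5:**
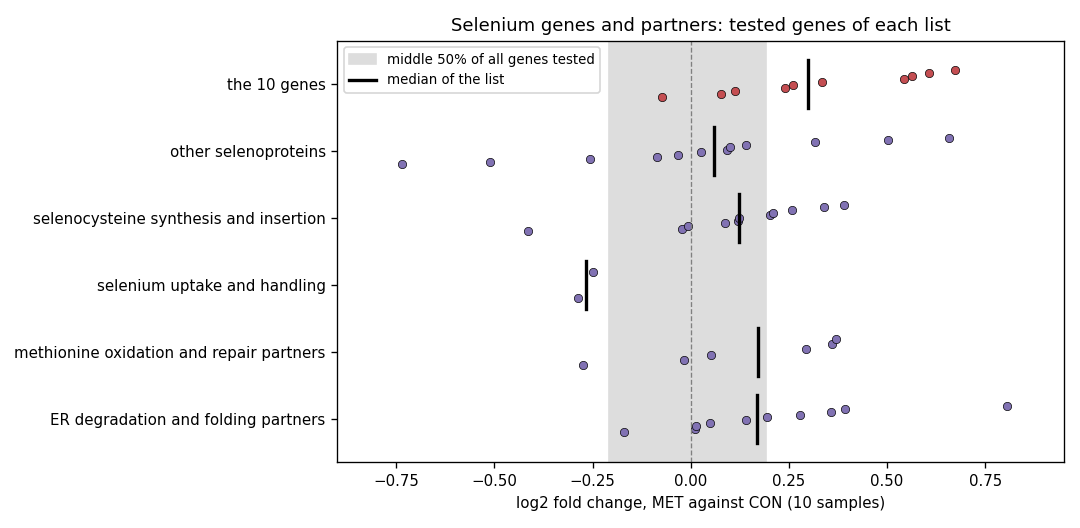
Log2 fold change of MET against CON (10 samples) for every tested gene of 6 lists, with a black bar at each list's median and grey between the quartiles of all genes tested (-0.21 to 0.19). The 10 genes run from -0.07 to 0.67 with a median of 0.30 (0.19 with the length trend removed), and the other selenoproteins spread from -0.74 to 0.66; the grey band is the spread of single genes and no yardstick for a median.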

How the data were processed

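The authors sequenced stranded mRNA libraries single-end on 1 lane, trimmed the reads, aligned them with STAR 2.5.3a to UMD 3.1.1 and counted them with featureCounts (Subread 1.5.2), reverse stranded and without multi-mapping reads, and deposited raw counts per gene ID for each of the 12 libraries. FastQC 0.11.15 is also named in the submitters' processing notes. Symbols came from a RefSeq gene table, which named 25105 of the 30336 IDs, and positions and exonic lengths from the count files. The 10 members share no exon bases with another gene.

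Libraries were mapped to diet by their labels. Pairs of libraries with a chi-square per gene under 2 were summed. CPM and RPKM were computed here on TMM library sizes (edgeR 4.0.16, R 4.3.3). Genes passing edgeR's filter (minimum count 10, total 15) were fitted on diet alone with the quasi-likelihood test, as in the study, with Benjamini-Hochberg adjustment over all genes. All 10 members passed. Of the samples' log2 CPM (prior count 2), exact two-sided permutation tests were run per gene, and member correlations used 100000 permutations within diet. As an alternative, each sample's loess curve of expression on log2 exonic length (span 0.5) was subtracted. The others were other scalings, filters, DESeq2 1.42.0, voom of limma 3.58.1, robust estimation, the 12 libraries, replicate blocks and each library left out. DESeq2 and the length correction on 12 libraries were added after the data were seen. Steps were tested on simulated data. Figures were drawn with matplotlib 3.10.9.

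All members, genes of the other lists at an FDR of 0.10 or less in either edgeR fit, and the 2 largest changes per list are named, with further genes (MSRB3, TXN2, DERL1, SYVN1, VCP, UGGT1, UGGT2 and ZDHHC6) chosen for their link to the members, after values were seen. The members and lists were chosen with earlier results of these data known. A count of 3 reads, the floor, equals 0.289 to 0.362 CPM, and floors cover counting error only. GC content, protein sequences and promoters were not used here.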

Additional observations from a re-analysis of the deposited data

Results flagged for a closer look

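The expression of each member was looked at for samples far from the rest of their diet, in 20 groups of 5 samples, of which chance alone would mark about 1 in 20. The pair of MET calves 1 and 3 was marked for SELENOS, at 76.9 CPM against 120.9 to 136.6 CPM in the other MET samples, a gap of 0.737 of the range of the group. The pair is 2 near-identical libraries, at 80.7 and 73.3 CPM, and counts as 1 sample.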

How the results depend on the processing

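No member passed FDR of 0.10 in the 10 samples by edgeR, against 1 in the 12 libraries, 2 by DESeq2, 4 by DESeq2 on the 12 libraries, 0 in the 12 libraries with the length trend removed and 0 to 1 on leaving out a library or a pair (1 without MET calves 1 and 3). All genes called went from 0 to 583, 639 and 1314 in the same alternatives, to 253 with the length trend removed in the 12 libraries, and 0 to 39 on leaving out a library or a pair (39 without MET calves 1 and 3). Genes of the 5 other selenium lists called went from 0 to 2 in the 12 libraries, 2 by DESeq2, 2 by DESeq2 on the 12 libraries and 1 with the length trend removed in the 12 libraries. Other scalings, filters, robust estimation and voom called 0 genes. Members with an exact permutation p of at most 0.05 numbered 4, where 7.43% of all genes tested were higher in MET at that p. They numbered 1 with the length trend removed (6.46% of all genes), and 2 to 5 on leaving out a library or a pair (2 without CON calves 1 and 4). Correlated member pairs numbered 1, against 0 with the length trend removed and 0 to 1 on leaving out a library or a pair. The same 3 steps in level passed in 16 of 16 alternatives run, each tested in the order of the main fit. These were the 12 libraries, another prior count and the fits that left out a library or a pair. The length trend was not removed in any of them. Of 280 single-gene values, 272 kept their direction and side of the threshold, 8 came to pass it, and 0 reversed. No member passed in the main fit, so none could cease to pass. A value counted as kept could still shrink, as SELENOW did from 0.24 to 0.08 (log2 fold change) with the length trend removed.

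Replicate numbers were tested for pairing on the 12 libraries. Same-number libraries had correlations of their deviations from -0.19 to 0.148, 1 of 6 was above 0.1, and 0 libraries matched best with their own number, so that they share only a number. A fit with a replicate block called 6 genes, 0 members and 0 genes of the other selenium lists.

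SELENOM rested on the fewest reads of the members, 40 to 244 per library at 8277789 to 10397604 counted reads.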
